A study of Mus musculus with 18 samples.

Results

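Cell-cell junction genes were examined in cultured mouse mammary fibroblasts: the claudins, the other membrane proteins and scaffolds of tight junctions, and the cadherins, plaque proteins and tetraspan protein of desmosomes. They were taken by gene symbol from the gene count table, which gave 46 genes of 55486. Of these, 32 had enough counts to be tested and 14, all of them claudins, did not.

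The libraries came from normal fibroblasts (NFs) of the mammary gland of FVB/n mice, sorted as CD26- or CD26+ cells that lacked EpCAM, CD49f, CD45 and CD31 at their surface, pooled over female mice and grown at low passage on collagen. Each cell type was kept for 7 days in control medium (3 libraries) or in conditioned medium (CM) of 6 tumour cell lines (6 libraries, 1 for each line). The lines, named 13/44, 10/221, 13/138, 18/12, 13/90 and 13/17, came from WEPtn tumours, a model of invasive lobular carcinoma in which Cre under the Wap promoter deletes floxed Cdh1, so that the tumour cells lack E-cadherin; the NFs came from floxed mice without the WapCre transgene or from mTmG reporter mice. The comparisons ask what tumour CM does to each cell type and how far the cell types differ in each medium.

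Tight junctions seal the space between neighbouring epithelial or endothelial cells. Claudins form their strands, occludin and its relatives and the junctional adhesion molecules sit beside the claudins in the membrane, and the zonula occludens proteins tie both to actin. Desmosomes are spot-like junctions in which desmogleins and desmocollins bind across the cell border and plakoglobin, plakophilins and desmoplakin anchor them to keratin filaments. In the mammary gland both kinds of junction belong mainly to the luminal and basal epithelium, while fibroblasts hold to each other chiefly through adherens junctions.

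The libraries held 9725723 to 14585349 counts. All 12 genes of a fibroblast list, among them Col1a1, Pdgfra and Dcn, were measured in every group, with a summed level of at least 17428 CPM (counts scaled to library size), and CD26+ NFs had 10 of them higher in control medium and 1, S100a4, lower (25% and 25.4% of all genes tested). Genes of an adipocyte list were higher in CD26+ NFs too, 5 of the 6 tested in each medium (25% and 29.3% of all genes), with all 8 listed summing to 176 to 199 CPM in CD26- and 736 to 810 CPM in CD26+ NFs in control medium, mostly from Lpl. Epithelial RNA was nevertheless present in every library, although the sort had selected against EpCAM: in CD26- NFs Epcam lay between 224 and 243 CPM (control medium) and between 134 and 208 CPM (tumour CM), and in CD26+ NFs between 39.9 and 78.8 CPM and between 33.4 and 84.5 CPM. None of the 39 genes of the luminal and basal lists was at 0 in all libraries. The summed level of the 36 that could be tested was 5922 to 6582 CPM in CD26- NFs in control medium and 3919 to 6292 CPM in CD26- NFs in tumour CM, against 1004 to 1765 CPM and 918 to 2213 CPM in the matching CD26+ groups. Of these 36, CD26+ NFs had 28 lower in control medium (25.4% of all genes tested) and 29 in tumour CM (29.3%), and none higher. Whether fewer cells of a type or less RNA in each cell lowers such a level cannot be told apart in bulk RNA. Dpp4, which encodes CD26, did not separate the labels in control medium, where it reached at most 0.171 CPM in CD26- and 0.0809 CPM in CD26+ NFs; in tumour CM it lay between 0.715 and 7.80 CPM in CD26+ and between 0.0776 and 0.881 CPM in CD26- NFs. Endothelial genes, whose cells also make tight junctions, were scarce, with all 15 together at 26.3 to 39.0 CPM in CD26- and 17.7 to 28.4 CPM in CD26+ libraries. Of 8 tested skeletal muscle genes, 7 were higher in tumour CM than in control medium in CD26- NFs (7.88% of all genes tested). In those NFs all 12 listed summed to 49.0 to 136 CPM (6.23 to 19.7 CPM in CD26+ NFs). Genes of mural cells, which wrap vessels, also differed. The 8 listed, none of them at 0 in all libraries, summed to 200.5 to 214 CPM in CD26- against 65.8 to 86.3 CPM in CD26+ NFs in control medium. There 4 of 6 tested were lower (25.4% of all genes) and 1 higher (25%) in CD26+ NFs. In tumour CM the 8 summed to 88.2 to 198 CPM against 64.0 to 109 CPM, with 2 lower (29.3%) and 1 higher (29.3%). In CD26- NFs 2 of the 6, Rgs5 and Mcam, fell with tumour CM (7.28% of all genes). Their part in the differences of the junction genes was not tested. Schwann cell and melanocyte genes (12 listed, at most 98.3 CPM in sum, Gjc3 and Dct at 0) had 2 of 6 tested lower in CD26+ NFs in each medium. Of the immune genes (10 listed, at most 30.0 CPM), 1 of 3 tested was lower. These counts leave out genes that were higher and stand beside 25.4% (control medium) and 29.3% (tumour CM) of all genes lower.

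Most of the junction genes stood lower in CD26+ NFs, and 2 stood higher. In control medium, CD26+ NFs had 27 of the 32 tested genes at a lower and 2 at a higher level than CD26- NFs, at a false discovery rate (FDR, the Benjamini-Hochberg adjusted p of edgeR's quasi-likelihood test) under 0.05. Over all 14273 genes tested, 25.4% were lower and 25% higher. The same 27 and the same 2 passed in tumour CM, where 29.3% of all genes were lower and 29.3% higher. The median log2 fold change over the 32 genes was -2.02 in control medium and -1.67 in tumour CM, beside 0.01 and -0.00011 over all genes tested. Lower in both media were 19.2% of all genes, and higher in both 18.9%. The control libraries enter only the first of these comparisons and the CM libraries only the second, so the pair shares no library. Of the 32 genes, 26 had at least 10 counts in every library, and Cldn9, Cldn15, Cldn23, Dsc3, Marveld3 and Tjp3 did not. Of these, Cldn23, Dsc3 and Tjp3 had at least 10 counts in every library of a group in CD26- groups only. Cldn23 and Tjp3 are among the 27. Since they reached 10 counts throughout a group only where they were high, in CD26- NFs, their part in that count is no support for it.

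**Figure D1:**
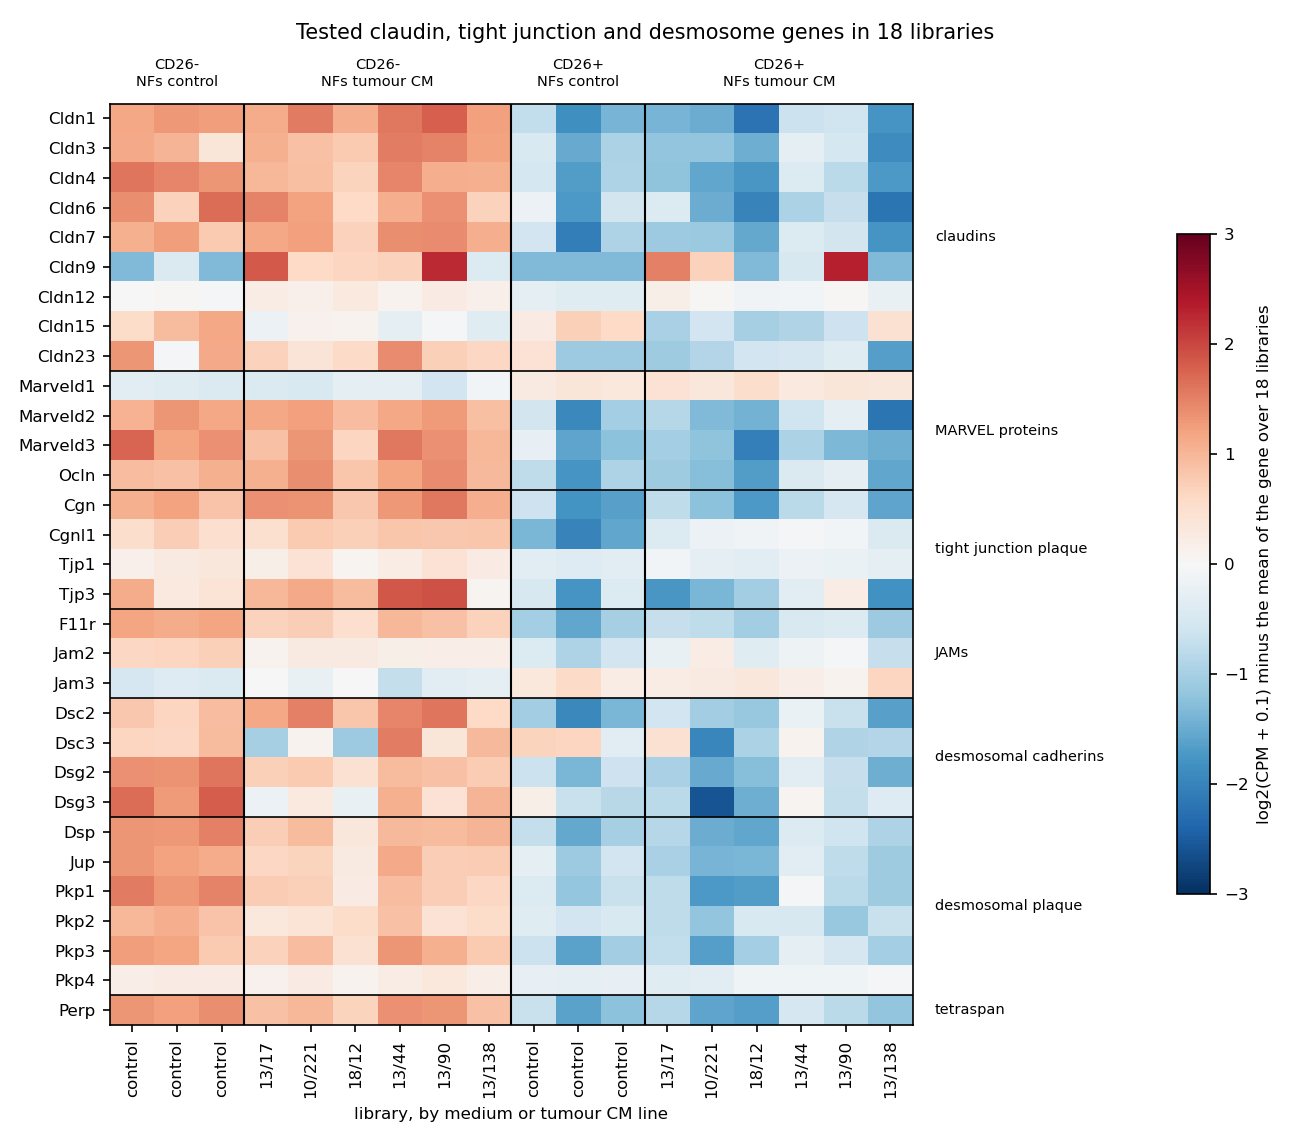
Heat map of 31 of the tested junction genes (rows, by role) in the 18 libraries (columns, by group and tumour CM line); colour gives log2(CPM + 0.1) minus the mean of the gene over all libraries, red high and blue low. Most rows are red in the 9 CD26- libraries and blue in the 9 CD26+ libraries, with Marveld1 and Jam3 the other way round, Cldn9, Cldn15 and Dsc3 mixed, and Cldn12, Tjp1 and Pkp4 pale throughout.

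The pair of genes that were higher in CD26+ NFs were Marveld1, which encodes a protein with the membrane-spanning MARVEL domain of occludin, and Jam3, which encodes JAM-C, an adhesion protein that binds JAM-B and is made by endothelial and mesenchymal cells. Marveld1 measured 88.2, 85.1 and 81.0 CPM in CD26- and 132, 141 and 137 CPM in CD26+ NFs in control medium. In tumour CM its lowest, median and highest levels were 74.3, 85.0 and 103 CPM in CD26- and 135, 140 and 159 CPM in CD26+ NFs. The groups did not overlap in either medium. The log2 fold change was 0.69 ± 0.09 (SE, FDR 7.74e-06) in control medium and 0.73 ± 0.06 (FDR 5.04e-08) in tumour CM, or 1.61-fold and 1.66-fold.

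Jam3 was lower in level and measured 12.4, 13.5 and 13.0 CPM in CD26- NFs against 22.2, 26.6 and 20.8 CPM in CD26+ NFs in control medium. In tumour CM it lay at 10.7 to 17.6 CPM (median 15.0) in CD26- and at 19.1 to 27.6 CPM (median 20.9) in CD26+ NFs, again without overlap. Its log2 fold change was 0.84 ± 0.16 (FDR 0.000266) in control medium and 0.54 ± 0.11 (FDR 0.000402) in tumour CM. Both genes were higher in CD26+ NFs for each of the 6 lines, by 0.42 to 0.92 (log2) for Marveld1 and by 0.22 to 0.91 for Jam3. Neither passed the test for an effect of tumour CM in either cell type. Most genes of the fibroblast and adipocyte lists were also higher in CD26+ NFs, and their part in the levels of this pair was not tested.

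**Figure D2:**
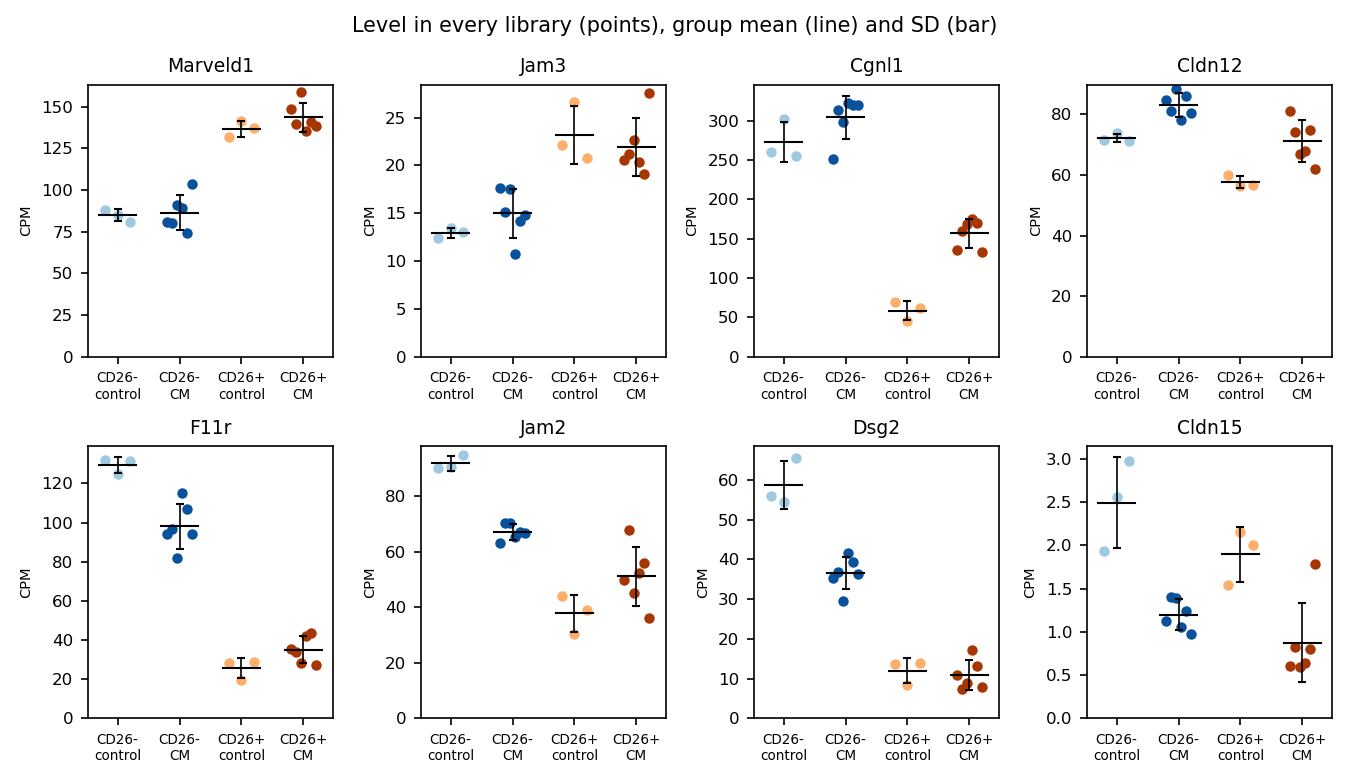
Level in CPM (vertical axes, from 0) of 8 junction genes in the 4 groups; points are libraries, horizontal lines group means and bars the SD (n = 3 in control medium, n = 6 in tumour CM). Marveld1 and Jam3 lie higher in CD26+ NFs, Cgnl1 rises from 45.1 to 69.7 CPM to 133 to 175 CPM in CD26+ NFs with tumour CM, and Dsg2 and Cldn15 are lower in tumour CM than in control medium in CD26- NFs.

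Among the claudins, Cldn4 was by far the most abundant per length of transcript. Its mean level was 259 CPM per kb of exon in CD26- NFs and 48.0 CPM per kb in CD26+ NFs in control medium, ahead of the next highest junction gene in each cell type (Perp with 77.1 and Marveld1 with 31.8 CPM per kb). Cldn3, Cldn4 and Cldn7 are claudins of the luminal mammary epithelium, and Cldn1 seals epidermis and other barriers. Cldn1 measured 93.8, 104 and 99.6 CPM in CD26- and 25.1, 11.6 and 15.8 CPM in CD26+ NFs in control medium. In tumour CM it lay at 89.7 to 145 CPM (median 111) in CD26- and at 8.95 to 27.4 CPM (median 15.3) in CD26+ NFs. The groups were far apart in both media, with log2 fold changes of -2.51 ± 0.33 (FDR 7.63e-06) and -2.67 ± 0.24 (FDR 4.9e-08).

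Cldn3, Cldn4, Cldn6 and Cldn7 were lower in CD26+ NFs by similar amounts, with log2 fold changes from -2.43 (Cldn4) to -1.81 (Cldn3) in control medium and from -2.29 (Cldn6) to -2.18 (Cldn3) in tumour CM, and none of their groups overlapped. Cldn23, which had enough counts in the CD26- groups only, measured 2.81, 1.02 and 2.44 CPM in CD26- and 1.46, 0.444 and 0.445 CPM in CD26+ NFs in control medium, with overlap. Its log2 fold change there (-1.43 ± 0.44, FDR 0.0123) did not pass without control replicate 1, 3, 11 or 12, and in tumour CM it was -1.69 ± 0.34 (FDR 0.000322). Cldn12, a claudin found in many tissues, differed little: it measured 71.2 to 73.7 CPM in CD26- and 56.4 to 59.9 CPM in CD26+ NFs in control medium, a log2 fold change of -0.32 ± 0.08 (FDR 0.00209). Cldn9 and Cldn15 did not pass in either medium.

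Of the 14 claudins with too few counts for a test, Cldn13, Cldn17 and Cldn22 had none in any library. A count of 0 allows up to 3 counts, or 0.206 to 0.308 CPM by library, from counting error alone. Cldn5, the main claudin of endothelium, reached 1 count in a single CD26+ library. Cldn2, which forms a pore for cations, had 13, 11 and 9 counts in the CD26- control libraries and at most 4 in any other library. Cldn19 had 6 counts in each CD26+ control library, 1 to 5 in the CD26+ libraries in tumour CM, and 3 counts in total over the 9 CD26- libraries. The highest count in any library was 5 for Cldn8, 3 for Cldn20, 2 for Cldn10, Cldn11 and Cldn18, and 1 for Cldn14, Cldn16 and Cldn24.

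Occludin and its relatives Marveld2 (tricellulin, which closes the corners where 3 cells meet) and Marveld3 were lower in CD26+ NFs, unlike Marveld1. Ocln measured 15.0, 14.5 and 16.4 CPM in CD26- and 4.61, 2.22 and 4.08 CPM in CD26+ NFs in control medium, and 13.9 to 21.0 CPM (median 17.2) against 2.36 to 6.48 CPM (median 3.43) in tumour CM. Its log2 fold changes were -2.08 ± 0.30 (FDR 1.87e-05) and -2.13 ± 0.21 (FDR 1.59e-07). Marveld3 measured 8.23, 5.55 and 6.36 CPM against 2.02, 0.741 and 0.965 CPM in control medium, and 3.80 to 7.43 CPM (median 5.52) against 0.507 to 1.19 CPM (median 0.931) in tumour CM. No CD26+ library reached a CD26- library for either gene, and the log2 fold changes of Marveld3 were -2.44 ± 0.32 (FDR 6.62e-06) and -2.57 ± 0.24 (FDR 9.23e-08). Marveld2 was lower by a log2 fold change of -2.29 ± 0.32 and -2.12 ± 0.23.

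The tight junction scaffold genes Tjp1, Cgn and Cgnl1 were lower in CD26+ NFs in both media, by very different amounts. Tjp1, which encodes ZO-1, a scaffold that fibroblasts also use, differed by only -0.60 ± 0.08 (FDR 1.21e-05) and -0.50 ± 0.06 (FDR 1.3e-06).

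Cgn encodes cingulin and Cgnl1 its relative paracingulin, which also sits at adherens junctions. Cgn measured 22.3, 24.5 and 19.2 CPM in CD26- and 6.80, 2.96 and 3.34 CPM in CD26+ NFs in control medium, and 18.6 to 31.9 CPM (median 26.6) against 3.12 to 7.45 CPM (median 5.23) in tumour CM. Its groups lay apart in both media, with log2 fold changes of -2.34 ± 0.30 (FDR 4.63e-06) and -2.32 ± 0.20 (FDR 4.69e-08). Cgnl1 differed by -2.21 ± 0.14 (FDR 4.89e-09) in control medium and by -0.95 ± 0.10 (FDR 2.25e-07) in tumour CM. Tjp3 had at least 10 counts in every library of the CD26- groups only. Its log2 fold changes were -1.50 ± 0.57 (FDR 0.0346) and -2.23 ± 0.39 (FDR 8.2e-05), at 5.97 CPM or less in every library. The first of these for Tjp3 did not pass without control replicate 1, 10 or 11 (FDR up to 0.145). Its exons overlap Apba3 on the opposite strand, and since the strand setting of the counting is not given in the sources used here, its value is uncertain.

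The junctional adhesion molecules split, with F11r (JAM-A of epithelia) and Jam2 (JAM-B) lower and Jam3 higher in CD26+ NFs. F11r measured 132, 125 and 131 CPM in CD26- and 28.2, 19.6 and 29.0 CPM in CD26+ NFs in control medium, a log2 fold change of -2.34 ± 0.17 (FDR 1.65e-08). In tumour CM it lay at 81.8 to 115 CPM (median 95.3) in CD26- and at 27.3 to 43.6 CPM (median 34.8) in CD26+ NFs, at a log2 fold change of -1.48 ± 0.12 (FDR 1.69e-08). Jam2 differed by -1.28 ± 0.16 (FDR 3.25e-06) in control medium and by -0.39 ± 0.11 (FDR 0.00514) in tumour CM, where its highest CD26+ library (67.7 CPM) lay above the lowest CD26- library (63.2 CPM).

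Desmosomal genes were lower in CD26+ NFs apart from Dsc3, which did not pass. Dsg2 and Dsc2 are the desmosomal cadherins of simple epithelia, and Dsg3 and Dsc3 those of basal and stratified epithelia. Dsg2 measured 56.1, 54.4 and 65.6 CPM in CD26- and 13.6, 8.30 and 13.9 CPM in CD26+ NFs in control medium, and 29.6 to 41.7 CPM (median 36.7) against 7.43 to 17.3 CPM (median 9.85) in tumour CM. The groups were apart, with log2 fold changes of -2.30 ± 0.24 (FDR 7.01e-07) and -1.74 ± 0.17 (FDR 1.9e-07). Dsc2 measured 16.8, 14.9 and 18.3 CPM against 4.61, 2.44 and 3.64 CPM in control medium, and 14.5 to 29.5 CPM (median 24.1) against 3.04 to 8.24 CPM (median 5.26) in tumour CM. Its groups did not overlap in either medium, at -2.23 ± 0.32 (FDR 1.69e-05) and -2.07 ± 0.21 (FDR 2.6e-07). Dsg3 was lower by -2.01 ± 0.44 (FDR 0.00104) and -1.27 ± 0.33 (FDR 0.00307), with overlap in tumour CM.

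In the desmosomal plaque, Pkp2, a plakophilin that is also made outside epithelia, measured 50.5, 53.8 and 45.6 CPM in CD26- and 19.8, 17.1 and 18.5 CPM in CD26+ NFs in control medium. In tumour CM it lay at 31.5 to 46.8 CPM (median 35.6) in CD26- and at 11.1 to 18.3 CPM (median 15.5) in CD26+ NFs. The log2 fold changes, -1.44 ± 0.17 (FDR 1.96e-06) and -1.29 ± 0.12 (FDR 9.05e-08), were smaller than those of Pkp1 (-2.17 and -1.58), Pkp3 (-2.15 and -1.72) and Dsp (-2.43 and -1.76); the differences between genes were not tested. Jup, which encodes plakoglobin, was lower by -1.84 ± 0.25 and -1.66 ± 0.18. Pkp4, which also joins adherens junctions, differed by only -0.50 ± 0.07 (FDR 2.04e-05) and -0.40 ± 0.05 (FDR 3.62e-06). Perp, the tetraspan protein that desmosomes of stratified epithelia need, measured 152, 141 and 159 CPM against 37.6, 19.7 and 25.6 CPM in control medium and 95.4 to 157 CPM (median 116) against 19.0 to 42.3 CPM (median 30.0) in tumour CM. No CD26+ library came near a CD26- library, and the log2 fold changes were -2.45 ± 0.27 (FDR 1.16e-06) and -2.08 ± 0.19 (FDR 6.98e-08).

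**Figure D3:**
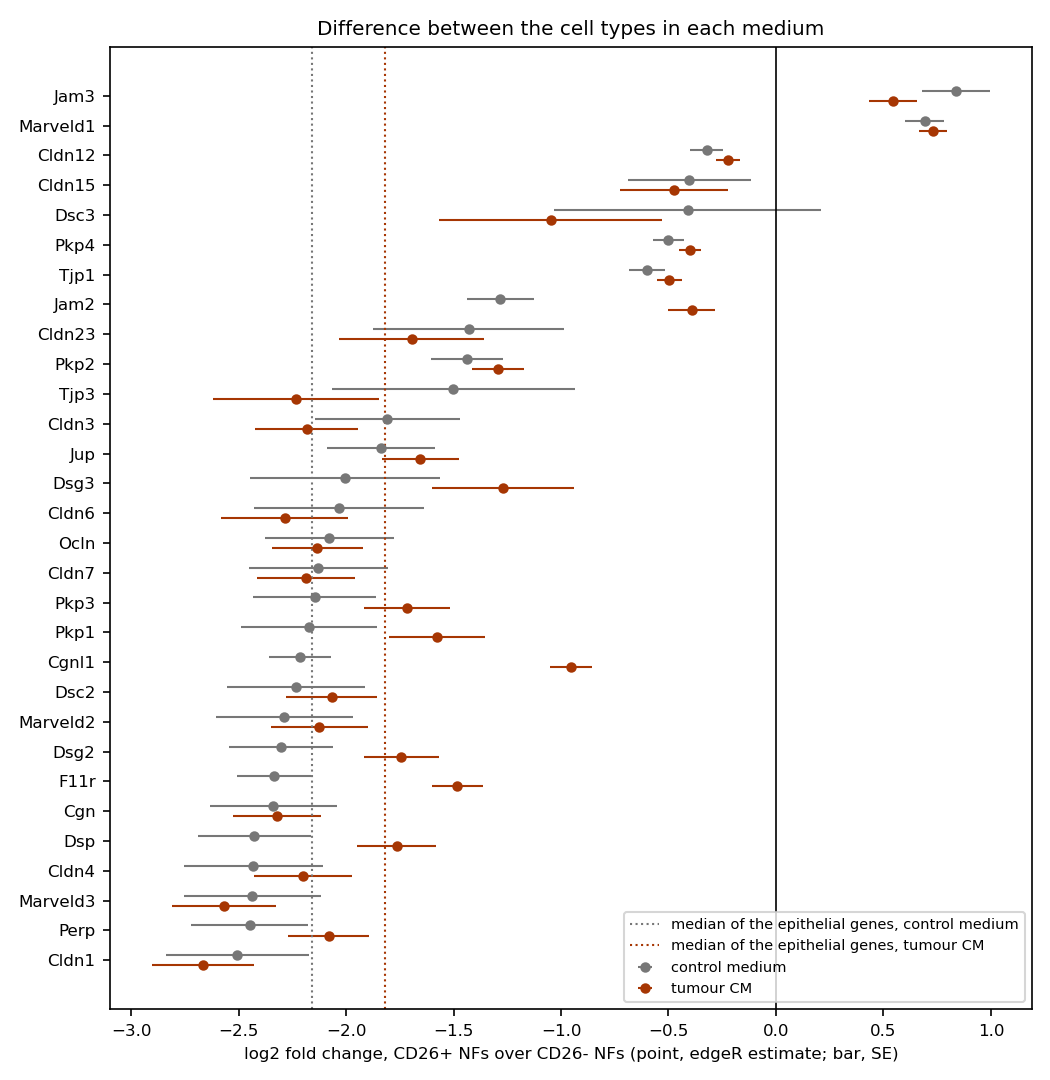
Log2 fold change of 30 tested junction genes (rows) in CD26+ over CD26- NFs, in control medium (grey) and tumour CM (brown); points are edgeR estimates, bars their SE, and dotted lines the median of the 36 epithelial genes in each medium. Jam3 and Marveld1 lie right of 0, Cldn12, Pkp4 and Tjp1 between -0.60 and -0.22, and most others near the dotted lines; Cldn9, whose SE reaches 2.82, is not drawn.

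Beside these values, the median log2 fold change of the 36 epithelial genes was -2.16 in control medium and -1.82 in tumour CM. With the study's added limit on size, 17 junction genes were lower by a log2 fold change beyond -2 in control medium (4.01% of all genes tested) and 12 in tumour CM (2.68%), and none was higher by as much. Tjp3 is one of the 12 and, with 10 counts in every library of its CD26- groups only, adds no support there either.

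Genes were then separated by whether their level moved with the epithelial RNA past the FDR. Missing that threshold does not show that a level stays apart from the epithelial RNA. In a model with 1 term per group, the slope of each gene on the epithelial level (the mean log2 CPM of the 36 epithelial genes, none of them a junction gene of the 46) was fitted within groups, so that the difference between the cell types did not enter it. A slope passed for 13 of the 32 junction genes, all with a positive sign, against 2.75% of all genes with a positive slope. They were Perp (slope 0.91 ± 0.09 in log2 units per log2 unit, FDR 2.18e-05), Jup (0.83 ± 0.08), Pkp1 (1.07 ± 0.11), Pkp3 (0.96 ± 0.11), Dsp (0.86 ± 0.10), Dsg2 (0.79 ± 0.11), Dsg3 (1.54 ± 0.23), Cldn4 (0.94 ± 0.14), Cldn1 (0.90 ± 0.19), Ocln (0.81 ± 0.20), Cldn3 (0.86 ± 0.21), Marveld3 (0.93 ± 0.24) and F11r (0.42 ± 0.11). Several of these slopes depended on single libraries: that of Marveld3 was lost in 12 of 18 refits that each dropped 1 library, that of F11r in 8, Cldn3 in 7, Ocln in 5 and Cldn1 in 1, while the other 8 passed in each. With the level taken from the basal genes only, 8 of the 13 slopes did not pass (Cldn1, Cldn3, Cldn4, Dsg2, F11r, Marveld3, Ocln and Pkp3), and with luminal genes only that of Dsg3 did not. In the CD26- libraries alone only Perp passed. The median slope was 0.79 over the 32 junction genes and -0.01 over all genes; for the epithelial genes themselves it was 0.94, which follows from their own mean being the level. Desmosomal genes made up 7 of these 13. Tjp1, Tjp3, Cgn and Cgnl1 were not among them.

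The 2 genes that were higher in CD26+ NFs had slopes of -0.08 ± 0.08 (Marveld1, FDR 0.746) and -0.28 ± 0.12 (Jam3, FDR 0.328). The other 14 genes that were lower in CD26+ NFs in both media had slopes that did not pass. For 7 of them the estimate was as large as among the genes that passed: Cgn (0.65 ± 0.22), Marveld2 (0.68 ± 0.25), Dsc2 (0.77 ± 0.21, FDR 0.0547), Cldn7 (0.78 ± 0.21, FDR 0.0602), Cldn6 (0.83 ± 0.35), Cldn23 (0.97 ± 0.38) and Tjp3 (1.34 ± 0.41). Small estimates were those of Tjp1 (0.13 ± 0.07), Cgnl1 (0.17 ± 0.11), Jam2 (-0.04 ± 0.13), Cldn12 (-0.04 ± 0.07), Pkp2 (0.27 ± 0.14) and Pkp4 (0.10 ± 0.06). Cldn9, Cldn15 and Dsc3 fell in none of these classes, since they did not differ between the cell types past the threshold.

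**Figure D4:**
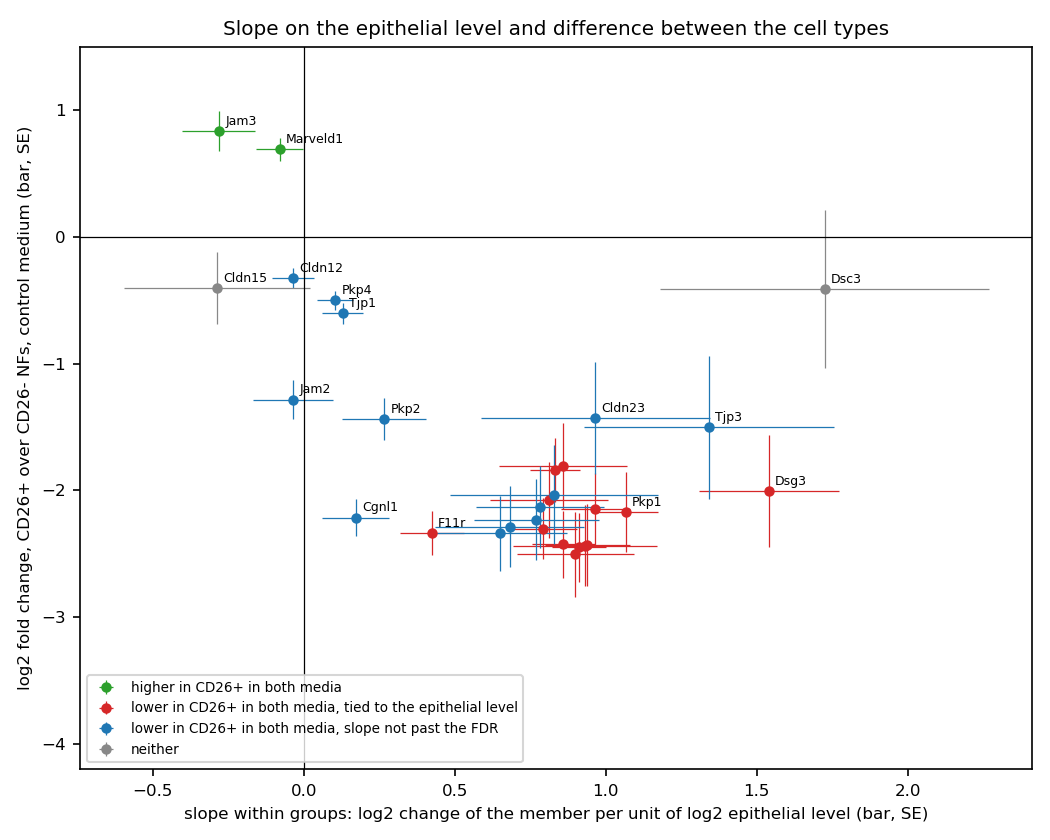
Slope of each junction gene on the epithelial level within groups (horizontal axis, log2 units per log2 unit) against its log2 fold change in CD26+ over CD26- NFs in control medium (vertical axis); bars are SE, colours the classes given in the text, and the unlabelled points are the remaining genes of the red and blue classes. Red points have slopes from 0.42 to 1.54, and Tjp1, Cgnl1, Jam2, Cldn12, Pkp2 and Pkp4 lie near a slope of 0 while below 0 on the vertical axis.

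When the epithelial level was added to the comparison of the cell types, 7 junction genes stayed lower in CD26+ NFs in control medium (4.77% of all genes tested), among them Cgnl1 (-1.90 ± 0.24, FDR 0.000203), F11r (-1.55 ± 0.23, FDR 0.000652), Jam2 (-1.35 ± 0.29, FDR 0.00847), Dsp (-0.85 ± 0.23, FDR 0.025), Dsg2 (-0.84 ± 0.24, FDR 0.0384) and Perp (-0.79 ± 0.19, FDR 0.0182). In tumour CM, 4 stayed lower (3.47%), among them F11r (-0.77 ± 0.20, FDR 0.0238), Perp (-0.59 ± 0.17, FDR 0.0366) and Cldn1 (-1.20 ± 0.36, FDR 0.0451). Marveld1 stayed higher in tumour CM (0.60 ± 0.15, FDR 0.0188) and missed in control medium (0.54 ± 0.17, FDR 0.0587); in this model 5.13% of all genes passed as higher in tumour CM and 4.81% in control medium. Jam3 did not pass in either (0.31 ± 0.27, FDR 0.506, and 0.08 ± 0.22, FDR 0.861). The cell types did not overlap in the epithelial level, at 2.64 to 4.13 (log2) in CD26+ and 4.67 to 5.48 in CD26- libraries, so this model carries the slope within groups across a gap that holds no library. Dsg3 in both media, Tjp3 and Cldn23 in control medium and Pkp1 in tumour CM changed sign in it without passing, as did genes that had not passed before (Dsc3 in both media and Cldn9 in tumour CM).

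Promoter sequences, from 250 bases before to 50 bases after the transcript start in RefSeq (GRCm38.p6), were at hand for 30 of the 46 genes. They are shown for Cldn3 and Cldn4, which lie close together on chromosome 5 and whose slopes on the epithelial level passed over all 18 libraries. The slope of Cldn3 was lost in 7 of 18 refits. Promoters are also shown for F11r, whose slope was the smallest of those that passed, and for Marveld1, which is higher in CD26+ NFs. Capitals mark CACCTG or its other strand, CAGGTG, the E-box that repressors of the Snail and Zeb families can bind.
Cldn3, chr5:134985964-134986263, plus strand: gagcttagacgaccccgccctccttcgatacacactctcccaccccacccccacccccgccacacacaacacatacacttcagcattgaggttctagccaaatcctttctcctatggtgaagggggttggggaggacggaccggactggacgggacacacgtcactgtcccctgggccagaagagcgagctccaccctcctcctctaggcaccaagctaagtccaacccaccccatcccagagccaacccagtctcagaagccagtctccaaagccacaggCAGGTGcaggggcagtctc
Cldn4, chr5:134946885-134947184, minus strand: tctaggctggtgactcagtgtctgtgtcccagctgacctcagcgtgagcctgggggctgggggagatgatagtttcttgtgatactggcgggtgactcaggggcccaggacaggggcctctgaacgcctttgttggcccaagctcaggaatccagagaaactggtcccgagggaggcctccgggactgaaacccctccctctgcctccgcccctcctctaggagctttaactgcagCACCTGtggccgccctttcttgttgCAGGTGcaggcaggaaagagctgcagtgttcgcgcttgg
F11r, chr1:171437311-171437610, plus strand: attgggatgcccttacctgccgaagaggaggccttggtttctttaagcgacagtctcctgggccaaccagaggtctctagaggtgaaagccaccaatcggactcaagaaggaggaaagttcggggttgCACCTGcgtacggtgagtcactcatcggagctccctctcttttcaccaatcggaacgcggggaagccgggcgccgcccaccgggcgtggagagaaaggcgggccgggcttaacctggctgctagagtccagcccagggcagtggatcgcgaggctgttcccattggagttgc
Marveld1, chr19:42147139-42147438, plus strand: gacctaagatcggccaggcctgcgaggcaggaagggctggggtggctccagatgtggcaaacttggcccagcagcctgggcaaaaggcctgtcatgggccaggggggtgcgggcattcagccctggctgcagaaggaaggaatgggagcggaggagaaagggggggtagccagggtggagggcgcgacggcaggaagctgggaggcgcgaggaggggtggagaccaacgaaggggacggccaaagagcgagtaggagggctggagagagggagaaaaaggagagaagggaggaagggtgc
Cldn4 held 2 copies in capitals, Cldn3 and F11r 1 each and Marveld1 none. Of the 16 genes lower in CD26+ NFs that had a promoter, 10 held the motif (Cldn3, Cldn4, Cldn6, Cldn7, Dsp, F11r, Marveld2, Ocln, Pkp4 and Tjp3), as did 1 of the 12 claudins with too few counts (Cldn14), against 20.7% of the 10670 tested genes with a promoter and 22.6% of the 27025 genes in the promoter table. Tjp3, which is among the 16 and the 10, had at least 10 counts in every library of its CD26- groups only, so its share in both counts carries no weight. A gene was counted if any of its listed promoters held the letters on either strand. Of 5 other motifs searched in the same windows, CANNTG, which contains CACCTG, was held by 13 of the 16 (67.2% of tested genes), GGGCGG by 15 (68.5%), TGANTCA by 2 (6.73%), AACCNGTT by 1 (2.15%) and TATAAA by 1 (8.93%). These are matches of letters, not sites shown to be bound.

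In CD26- NFs tumour CM lowered more junction genes than it raised. Of the 32, 6 were lower in tumour CM (7.28% of all genes tested were) and 1 was higher (7.88%). Dsg2 fell from 54.4 to 65.6 CPM in control medium to 29.6 to 41.7 CPM in tumour CM, without overlap, a log2 fold change of -0.69 ± 0.19 (FDR 0.0216). Jam2 fell from 90.1, 90.5 and 94.9 CPM to 63.2 to 70.5 CPM (median 66.9), at -0.45 ± 0.13 (FDR 0.0265). The other genes that fell were Dsg3 (-1.13 ± 0.35, FDR 0.0374), Pkp1 (-0.77 ± 0.25, FDR 0.0478), Pkp2 (-0.44 ± 0.14, FDR 0.0374) and Cldn15 (-1.06 ± 0.26, FDR 0.0104).

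Cldn15, a pore-forming claudin best known from gut, measured 1.94, 2.56 and 2.98 CPM in control medium and 0.973 to 1.40 CPM (median 1.18) in tumour CM. Cldn12 rose by 0.20 ± 0.07 (FDR 0.0484), from 71.2 to 73.7 CPM to 78.1 to 88.2 CPM. The epithelial genes had a median log2 fold change of -0.38 in the same comparison, beside -0.11 for the 32 junction genes and 0.01 for all genes tested. With the epithelial level in the model, Dsg2 (-0.44 ± 0.10, FDR 0.012), Pkp1 (-0.44 ± 0.10, FDR 0.0127), Dsg3 (-0.69 ± 0.20, FDR 0.0376), Jam2 (-0.46 ± 0.14, FDR 0.0419) and Cldn15 (-1.15 ± 0.27, FDR 0.0129) stayed lower, Dsc2 passed as higher (0.68) and Pkp2 and Cldn12 did not pass. In that model 5.04% of all genes tested were lower and 5.56% higher. This comparison depended on single libraries: among the 32 genes, 1 passed when control replicate 1 or 3 was left out, 2 without control replicate 2 or the library of line 13/17, 3 without that of line 10/221, 18/12 or 13/90, and 9 without that of line 13/44.

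In CD26+ NFs, tumour CM raised 5 of the 32 junction genes, a share close to the 15.2% of all genes that rose. It lowered 1, against 13.4% of all genes. Cgnl1 measured 69.7, 45.1 and 61.5 CPM in control medium and 133 to 175 CPM (median 164) in tumour CM. Every CM library lay above every control library, by a log2 fold change of 1.42 ± 0.13 (FDR 8.23e-07) or 2.68-fold. Cldn12 also rose without overlap, from 56.4 to 59.9 CPM to 61.8 to 81.2 CPM, by 0.30 ± 0.07 (FDR 0.00297). Jam2 rose by 0.44 ± 0.14 (FDR 0.0238) and F11r by 0.46 ± 0.15 (FDR 0.0323), both with overlap. Cldn15 fell by 1.13 on the log2 scale (SE 0.28, FDR 0.00558), from 1.54, 2.15 and 2.00 CPM to 0.591 to 0.825 CPM in 5 libraries and 1.79 CPM with the CM of line 13/138. The median log2 fold change of the epithelial genes was -0.04 here and that of the 32 junction genes 0.07. Cgnl1, Cldn12, Jam2, F11r and Cldn15 also passed with the epithelial level in the model, in the same direction, joined by Dsc2 (0.69) and Pkp3 (0.33), where 15.5% of all genes rose and 13.7% fell. Jam2 did not pass without control replicate 11 or 12 or the library of line 10/221 or 13/90 (FDR up to 0.183). F11r did not pass when the library of any of lines 13/17, 10/221, 13/44 or 13/90, or control replicate 10 or 11, was left out.

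The effect of tumour CM differed between the cell types for 3 genes, all with the more positive effect in CD26+ NFs (4.53% of all genes tested). Cgnl1 gave the clearest case: in CD26- NFs it measured 261, 302 and 255 CPM in control medium and 252 to 323 CPM (median 317) in tumour CM, which did not pass, while it rose in CD26+ NFs. The difference between the effects was 1.26 ± 0.17 on the log2 scale (FDR 0.00154). Jam2 and F11r had estimates of opposite sign in the cell types, with differences of 0.89 ± 0.19 (FDR 0.0109) and 0.85 ± 0.20 (FDR 0.0187); the fall of F11r in CD26- NFs itself did not pass (-0.40 ± 0.14, FDR 0.0561). All 3 stayed past the threshold with the epithelial level in the model, at 1.24 ± 0.16, 0.90 ± 0.19 and 0.78 ± 0.15, and Dsp passed as well (0.49 ± 0.14, FDR 0.0475; 4.7% of all genes had a more positive and 2.92% a more negative effect in that model). With CD26+ control replicate 11 left out, Cgnl1 passed and Jam2 and F11r did not; with CD26- control replicate 1 or 3 left out, Cgnl1 and Jam2 passed and F11r did not. None of the 32 had a more negative effect in CD26+ NFs that passed (3.01% of all genes).

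Cldn9 was close to absent in control medium and present with the CM of some lines in both cell types. It had 0, 1 and 0 counts in the CD26- and 0, 0 and 0 counts in the CD26+ control libraries. With the CM of line 13/90 it had 14 counts in CD26- and 13 in CD26+ NFs, with line 13/17 10 and 8, with line 10/221 4 and 4, with line 18/12 4 and 0, with line 13/44 4 and 1, and with line 13/138 1 and 0. The rise did not pass in either cell type (FDR 0.108 in CD26- and 0.0672 in CD26+ NFs), nor did the line (FDR 0.0646).

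Between the CM of the 6 lines, the 13 junction genes with a slope that passed were mostly highest with the line that had the highest epithelial level, a relation that the slope had already used. In the CD26- libraries all 13 of them were lowest with line 18/12, which also had the lowest summed epithelial level of these (3919 CPM), and 10 were highest with line 13/44, which had the highest (6292 CPM). Over all genes tested, 15.1% were lowest with line 18/12 and 21.8% highest with line 13/44 in these libraries. In CD26+ NFs 10 of the 13 were highest with line 13/44 (2213 CPM; 17.2% of all genes). Their lowest levels were less uniform there: 6 were lowest with line 18/12 (931 CPM; 13.3% of all genes), 5 with line 10/221, which had the lowest epithelial level (918 CPM; 14.3%), and 2 with line 13/138 (1155 CPM; 23.8%). With line 13/44, 9 of the 13 and 11 of all 32 were highest in both cell types (7.53% of all genes). Perp, for example, measured 157 CPM with line 13/44 and 95.4 CPM with line 18/12 in CD26- NFs, and 42.3 and 19.0 CPM in CD26+ NFs.

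A test of the line across the 12 CM libraries, with a term for cell type, passed for 3 junction genes (6.28% of all genes tested), and between 0 and 12 genes when single CM libraries were left out. They were Jup (FDR 0.022), Tjp3 (FDR 0.0239) and F11r (FDR 0.0496). In CD26- NFs, Jup was lowest with line 18/12 (138 CPM) and highest with 13/44 (253 CPM), and in CD26+ NFs lowest with 10/221 (44.2 CPM) and highest with 13/44 (93.3 CPM). Tjp3 was highest with line 13/90 and lowest with line 13/138 in both cell types, at 5.97 and 1.59 CPM in CD26- and 1.77 and 0.357 CPM in CD26+ NFs. With the CM of each of the 6 lines, CD26+ NFs had 27 of the 32 at a lower level (25.7% of all genes) and 2 at a higher level (26.1%). Cldn23 and Tjp3 are among these 27 as well and, with 10 counts in every library of the CD26- groups only, they add no support.

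**Figure D5:**
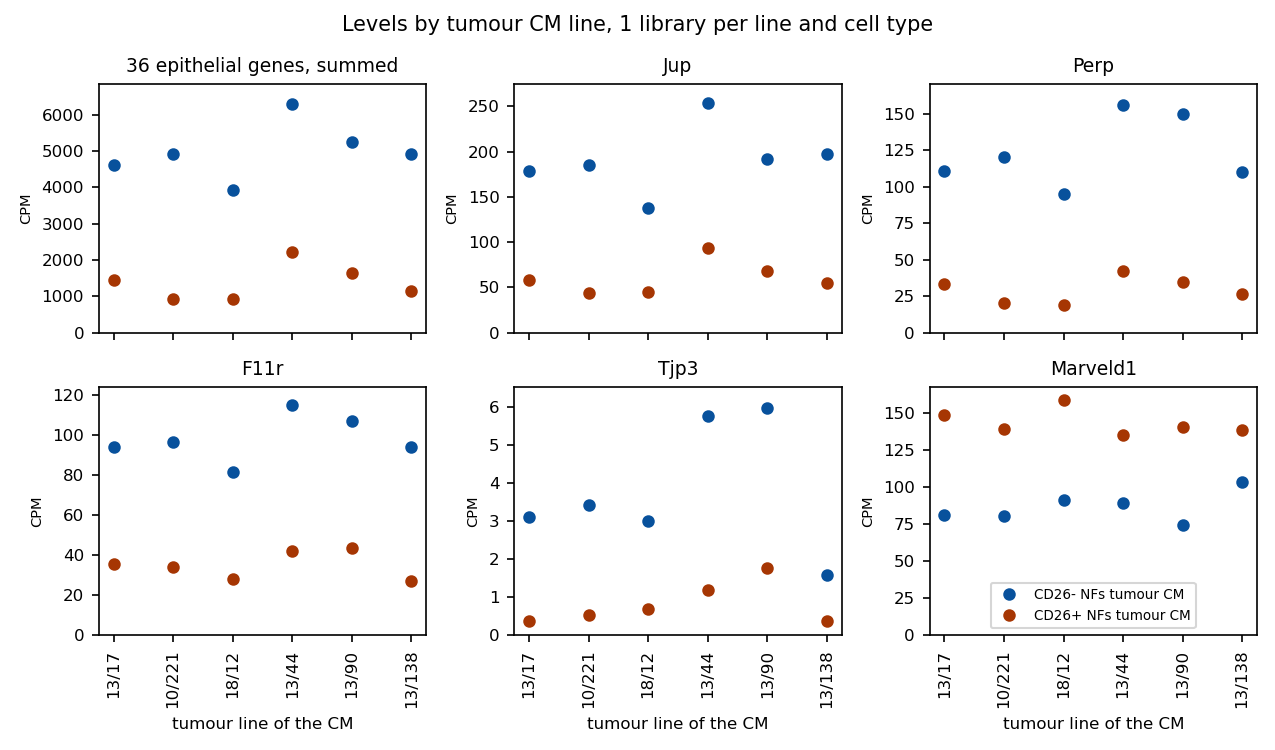
Level in CPM (vertical axes, from 0) by tumour line of the CM (horizontal axes) in CD26- (blue) and CD26+ (brown) NFs, 1 library per point, for the 36 epithelial genes summed and for 5 junction genes. Jup and Perp are highest where the epithelial genes are highest, with line 13/44, and Marveld1 is higher in CD26+ NFs for all 6 lines and is not highest with 13/44 in either cell type.

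Genes of neighbouring structures were measured for comparison. Of 14 tested adherens junction genes, CD26+ NFs had 9 lower in control medium and 1 higher (25.4% and 25% of all genes), and 8 lower and 3 higher in tumour CM (29.3% and 29.3%). The gene higher in control medium was Cdh11 (0.77 ± 0.08), the cadherin of mesenchymal cells. Cdh1, which encodes E-cadherin, was lower by -2.48 ± 0.29 and had a slope on the epithelial level of 0.83 that passed (it is not one of the 36 genes of that level), while Cdh2, which encodes N-cadherin, was lower by -0.85 ± 0.13. Afdn, which encodes the actin linker afadin, was lower by -1.92 ± 0.16 in control medium and rose with tumour CM in CD26+ NFs by 0.74, with a difference between the cell types (0.69) that passed.

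Of 25 tested tight junction polarity and adaptor genes, CD26+ NFs had 13 lower and 3 higher in control medium and 13 lower and 4 higher in tumour CM, against the same shares of all genes. Higher in control medium were Clmp (1.42), an adhesion protein related to Cxadr, which was itself lower (-2.13), and by less Mpdz (0.33), a scaffold with many PDZ domains, and Arhgef2 (0.29), an activator of RhoA. Pard6b (-2.64), Ildr1 (-2.55), Patj (-2.17) and Crb3 (-2.03), parts of apical polarity complexes or of tricellular junctions, were lower too. Slopes on the epithelial level passed for 7 of the 25 and for 3 of the 14 adherens junction genes (2.75% of all genes); Cdh3, the only gene of these lists that is part of the level itself, was not among those that passed. Among other desmosome linkers, Ppl and Evpl, which encode periplakin and envoplakin, were lower in CD26+ NFs (control medium, -2.41 ± 0.27 and -2.13 ± 0.34) and Kazn rose with tumour CM by 1.48 (log2) in CD26+ NFs, which differed by 1.46 from the effect in CD26- NFs (FDR 0.000559).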

How the data were processed

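Total RNA of cultured NFs was sequenced by the authors from stranded poly(A) libraries, single-end, and aligned to GRCm38 with HISAT2 2.1.0 and counted per gene with HTSeq, per the labels; strand setting and annotation release are not given in the sources used here. The deposited values are raw counts per gene. A single row names no gene and holds 0 counts, a share of 0. Groups follow the sample labels. Nothing in the labels says that libraries of a group came from separate cultures or animals, so p-values measure only the spread between these libraries, which may be technical.

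Counts were fitted with edgeR 4.0.16 (quasi-likelihood F test, TMM scaling, filterByExpr, 1 term per group, all 18 libraries; 14273 genes, Benjamini-Hochberg over all of them, FDR under 0.05). CPM use TMM library sizes, and exon lengths come from GENCODE vM21. Alternatives were DESeq2 1.42.0, other scalings, filters and samples, the epithelial covariate and the line as a block. The block rests on the line: residuals of the libraries of 1 line correlated at 0.247 to 0.406 between the cell types. The script was tested on simulated data. Up to 12 junction genes with the smallest FDR in any of 5 comparisons and a mean of at least 1 CPM in some group are given by library, and other genes past the threshold by their values. An item of these results that is counted in the totals is not reported here. The genes, lists and motifs were chosen with earlier results of these data known.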

Additional observations from a re-analysis of the deposited data

Results flagged for a closer look

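The effect of tumour CM differed between CD26+ and CD26- NFs for 3 junction genes, by the test of the difference itself. On the log2 scale, CD26+ minus CD26-, the difference was 1.26 for Cgnl1, 0.89 for Jam2 and 0.85 for F11r.

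A single library stood far from the other 5 of its group in 3 of 64 groups examined (32 genes in each of the CM groups); chance alone gives about 1 in 20. Cldn15 reached 1.79 CPM in CD26+ NFs with the CM of line 13/138, against 0.825 CPM or less with the other lines. Cldn23 reached 3.00 CPM in CD26- NFs with line 13/44, against 1.78 CPM or less. Cgnl1 was at 252 CPM in CD26- NFs with line 13/17, against 299 CPM or more. In each case the other cell type's library for that line was not set apart.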

How the results depend on the processing

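Over 90 results of single junction genes that passed, other settings gave the same direction and the same side of the threshold 2061 times, the same direction without passing 202 times and the opposite direction 5 times. All 5 came with the epithelial level as a covariate, none of them passed there, and the cause was not tested: Pkp1 in tumour CM (0.11), Tjp3 in control medium (0.98), Dsg3 in control medium (0.83) and in tumour CM (1.20), and Cldn23 in control medium (0.35), all as log2 fold changes of CD26+ over CD26- NFs. That covariate left 7 genes of the 29 past the threshold between the cell types in control medium and 5 in tumour CM. A log2 limit of 2 beside the FDR left 17 and 12 of these. Tjp3, among the 12, had 10 counts in every library of its CD26- groups only and adds no support. That limit left 0 for the effect of tumour CM in CD26- NFs, 0 in CD26+ NFs and 0 for the difference between them. The tumour line passed for 1 gene with a mean of at least 5 CPM required, 20 with no filter on low counts and 7 with upper-quartile scaling. A slope on the epithelial level passed for 6 genes with basal genes only, 5 in the CD26+ libraries alone and 1 in the CD26- libraries alone, where fewer libraries were used. Leaving out each library in turn gave 1 to 9 genes for tumour CM in CD26- NFs, 4 to 7 in CD26+ NFs, 27 to 29 between the cell types in control medium and 29 to 30 in tumour CM, 1 to 4 for the difference, 0 to 12 for the line (0 without the CD26- library of line 18/12 or the CD26+ library of 18/12, 13/44 or 13/90, and 12 without the CD26- library of line 13/138) and 8 to 15 for the slope. With the line as a replicate block, pairing the libraries of 1 line, 29 genes passed between the cell types in tumour CM and 4 for the difference, and no count moved by more than 1.5 times. The rise of Cldn12 with tumour CM in CD26- NFs no longer passed in 17 of 25 settings and the fall of Pkp1 in 14 of 25, some of which left out CD26+ libraries; the cause was not tested.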
